A study of Mus musculus with 8 samples.

Results

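The regions described here are all those on mouse chromosome 6 in a table of ATAC-seq counts, 9443 of 148664 regions (6.35%). They were chosen by chromosome alone, because earlier results of these data had shown high counts for this chromosome in 1 of the 4 cell lines, line 112. The regions ran from base 3177687 to base 149586576 of the mm10 (GRCm38) build, were 501 to 2973 bp long, and lay near or between 1126 protein-coding genes of the chromosome. Every contrast that contains line 112 is therefore given as a description. Tests are read only for contrasts among the other 3 lines.

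ATAC-seq measures open chromatin: the Tn5 transposase inserts adapters where DNA is accessible, and the tagged fragments are sequenced. The 8 libraries came from 4 mouse melanoma cell lines, 2 biological replicates per line, with 50000 cells per transposase reaction and fragments over 1200 bp removed. Lines 112 and 113 were labelled STAT3 knockout (Stat3∆), and lines 119 and 73 wild type (Stat3fl, the unrecombined floxed allele). Each line was a pool grown from lymph node cells of mice whose cutaneous melanoma began at about 25 to 30 weeks of age, and so is not a single-cell clone by that description, although the labels also call each a clone. The titles carry the numbers p18 for line 112, p44 for line 113, p14 for line 119 and p68 for line 73, whose meaning is not stated. No label says which Cre or promoter was used, or whether the replicates of a line were separate cultures. The p-values of the line contrasts below measure the spread between 2 libraries of a line, which may be technical. Those of the genotype comparison measure the spread between lines of the same genotype.

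The libraries held 2697546 to 7464336 counts, fewest in line 112 replicate 2 and most in line 119 replicate 1. The share of all counts in the strongest of 10 equal classes of regions was 43.3% and 38.2% for line 112, 48.7% and 48.8% for line 113, 36.4% and 37.1% for line 119, and 45.8% and 45.9% for line 73. The region at the end of Stat3, the targeted gene, on chromosome 11 had 30.5 and 25.9 CPM (counts scaled to a common library total after TMM) for line 112, 38.5 and 37.5 for line 113, 18.2 and 18.2 for line 119, and 38.9 and 28.1 for line 73. It lies at a gene end, so it does not check the deletion. Of the markers of each cell type, 7 of 7 melanocyte genes, 5 of 5 fibroblast genes, 5 of 7 leukocyte genes and 1 of 4 endothelial genes had a region at a gene end. The defining leukocyte genes Ptprc and Itgam and the endothelial genes Pecam1, Cdh5 and Tek had none. Summed over the melanocyte list, the level was 124 to 160 CPM for line 112, 221 to 250 for line 113, 74.6 to 84.2 for line 119 and 122 to 123 for line 73. Peak calls lay at 4 to 7 of the 7 melanocyte genes in lines 112, 113 and 119 and at 2 of 7 in both libraries of line 73. The fibroblast list summed to 87.8 and 82.5 CPM for line 73 and 30.8 to 47.3 in the other lines. Peak calls lay at 4 of its 5 genes in both libraries of line 73 and at 0 to 2 in the others.

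As background, the number of ATAC-seq fragments from a region depends both on how open the chromatin is and on how many copies of the DNA a cell holds. Cultured tumour cells often gain or lose whole chromosomes or long arms. A gain adds fragments to every region of the segment, strong or weak, whereas a change in a single enhancer or promoter is local. Mouse chromosome 6 carries several genes studied in melanoma: Braf of the MAP kinase pathway, the growth factor receptor gene Met, and Mitf, the master transcription factor of melanocytes. It also holds the Hoxa cluster, which sets position along the body axis, and the widely used reference gene Gapdh. Copies of DNA per cell were not measured in these libraries.

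Sequences are shown for 6 promoters, 2 from each of the 3 stretches of the chromosome described below, because the level of line 112 differed between these stretches. Each is the 250 bases before a transcription start in RefSeq (GRCm38.p6), written 5′ to 3′ on the gene's strand, and each start lay inside a region of the table. Met and Braf come from the proximal stretch, Mitf and the replication gene Mcm2 from the middle stretch, and Cdkn1b, a brake on the cell cycle, and Gapdh from the distal stretch. Capitals mark matches to CACGTG or CATGTG, E-box forms bound by basic helix-loop-helix factors such as MITF, or to TTCNNNGAA, the core recognised by STAT factors, each searched on both strands.
Met (chr6:17463707-17463956, plus strand): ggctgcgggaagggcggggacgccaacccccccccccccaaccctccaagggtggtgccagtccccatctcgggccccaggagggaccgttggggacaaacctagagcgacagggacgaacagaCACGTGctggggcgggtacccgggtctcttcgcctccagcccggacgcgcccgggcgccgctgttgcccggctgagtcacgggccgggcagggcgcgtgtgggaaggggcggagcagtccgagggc
Braf (chr6:39725464-39725713, minus strand): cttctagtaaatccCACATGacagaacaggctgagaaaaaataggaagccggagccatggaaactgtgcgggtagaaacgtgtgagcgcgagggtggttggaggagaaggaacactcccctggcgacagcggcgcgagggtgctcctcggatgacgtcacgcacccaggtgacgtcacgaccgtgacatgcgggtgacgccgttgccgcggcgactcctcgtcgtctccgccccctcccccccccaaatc
Mitf (chr6:97806808-97807057, plus strand): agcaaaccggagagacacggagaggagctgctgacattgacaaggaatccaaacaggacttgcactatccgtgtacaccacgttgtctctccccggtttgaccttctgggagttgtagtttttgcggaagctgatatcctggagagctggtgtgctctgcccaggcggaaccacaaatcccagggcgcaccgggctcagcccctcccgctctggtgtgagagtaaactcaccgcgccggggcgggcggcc
Mcm2 (chr6:88898781-88899030, minus strand): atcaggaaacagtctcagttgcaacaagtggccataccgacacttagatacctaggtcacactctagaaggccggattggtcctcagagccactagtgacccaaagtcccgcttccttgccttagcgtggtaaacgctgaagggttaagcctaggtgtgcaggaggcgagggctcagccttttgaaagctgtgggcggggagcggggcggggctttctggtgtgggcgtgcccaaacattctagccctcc
Cdkn1b (chr6:134920151-134920400, plus strand): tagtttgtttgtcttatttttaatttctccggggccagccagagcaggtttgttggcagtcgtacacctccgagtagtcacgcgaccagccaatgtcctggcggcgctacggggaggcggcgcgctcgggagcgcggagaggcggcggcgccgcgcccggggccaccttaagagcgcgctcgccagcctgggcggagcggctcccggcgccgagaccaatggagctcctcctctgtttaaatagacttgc
Gapdh (chr6:125165774-125166023, minus strand): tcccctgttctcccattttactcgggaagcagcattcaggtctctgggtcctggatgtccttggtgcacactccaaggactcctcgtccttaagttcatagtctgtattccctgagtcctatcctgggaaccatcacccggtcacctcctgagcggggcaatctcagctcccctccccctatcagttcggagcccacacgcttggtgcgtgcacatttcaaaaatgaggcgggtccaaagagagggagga

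The Met window held 1 CACGTG and the Braf window 1 CATGTG, printed as its reverse complement, and the other 4 windows held no match. Among 32817 RefSeq windows of this length, CACGTG was present in 6.02%, CATGTG in 12.3% and TTCNNNGAA in 7.01%. Among the 1865 windows of chromosome 6 the shares were 4.61%, 13.2% and 7.45%. A match describes letters only. The GC content of the 6 windows was 74.0% at Met, 62.0% at Braf, 59.6% at Mitf, 56.8% at Mcm2, 64.4% at Cdkn1b and 55.6% at Gapdh.

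Chromosome 6 held a larger share of the counts in line 112 than in the other lines, among weak and strong regions alike. Autosomal regions were ordered by mean CPM over the 4 lines and cut into 4 equal classes, of which the lowest is called weak (36156 regions, 1831 on chromosome 6) and the highest strong (36157 regions, 2519 on chromosome 6). Of the weak-region counts, 7.59% and 7.78% lay on chromosome 6 in the 2 libraries of line 112. The values were 4.34% and 4.43% for line 113, 3.78% and 3.89% for line 119, and 4.23% and 4.16% for line 73. The libraries of line 112 were thus above the other 6, whose values did not exceed 4.43%. For line 112 replicate 1, 17735 of 233602 weak counts were on the chromosome, with a 95% Wilson interval of 7.49% to 7.7% that covers counting error only, since PCR duplicates are not independent. Of the strong-region counts, 9.64% and 9.82% lay on the chromosome in line 112, against 6.07% and 6.09% for line 113, 5.86% and 5.78% for line 119, and 6.18% and 6.33% for line 73.

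The share in each line was divided by the mean share of the other 3 lines. For chromosome 6 in line 112 this ratio was 1.86 in weak regions, 1.84 in the second class, 1.78 in the third and 1.61 in strong regions. Over all regions it was 1.67. These were the highest of the 76 ratios of 19 autosomes and 4 lines in each class. The next highest were 1.37 for chromosome 19 in line 113 among weak regions and 1.27 for chromosome 15 in line 73 among strong regions. On the other 18 autosomes, line 112 ranged from 0.751 (chromosome 3) to 1.15 (chromosome 1) in weak regions and from 0.807 to 1.07 in strong regions. Lines 113, 119 and 73 had weak ratios of 0.836, 0.707 and 0.792 on chromosome 6, which are below 1 because line 112 is in their comparison. Against each other only, they had ratios of 1.09, 0.894 and 1.02 in weak regions and 1.01, 0.943 and 1.05 in strong regions, within the range of their other autosomes.

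**Figure D1:**
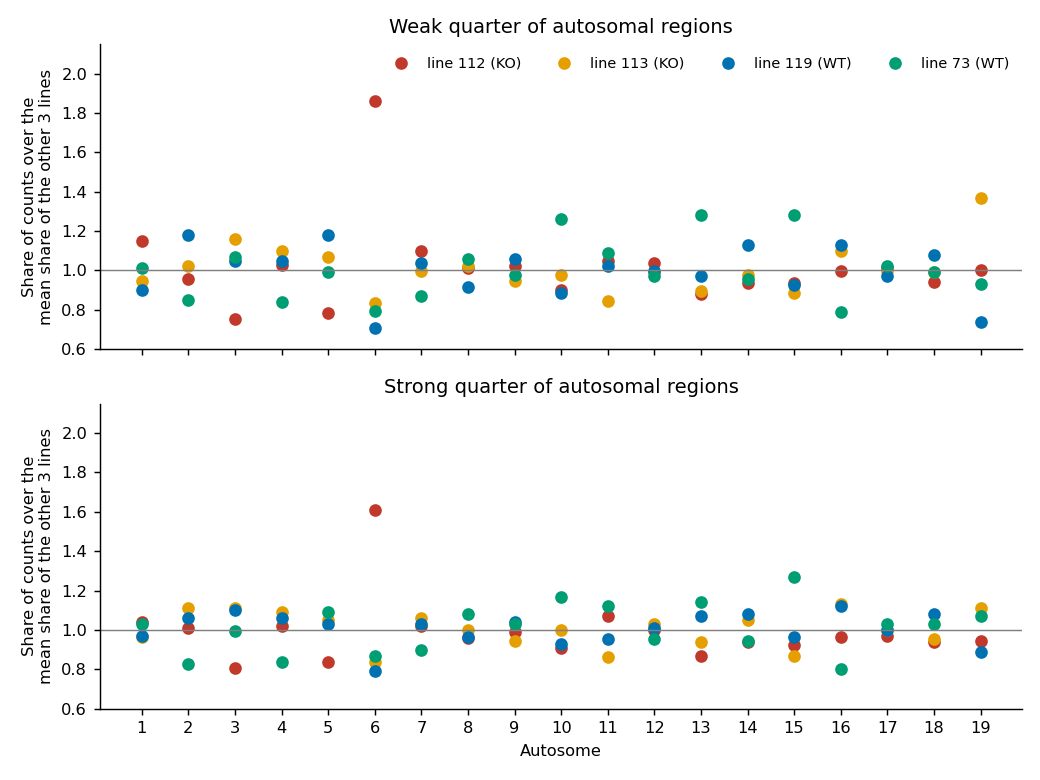
Share of the counts on each autosome in 4 lines, divided by the mean share of the other 3 lines, for weak regions (top) and strong regions (bottom); each point is the mean of 2 libraries of a line. Chromosome 6 of line 112 stands at 1.86 and 1.61, above every other point.

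The ratio changed with region strength. In 10 equal classes of autosomal regions, chromosome 6 of line 112 had ratios of 1.8 in the weakest class, 1.9 in the third class and 1.56 in the strongest. The libraries of line 112 differed little in each class, for example 1.79 and 1.81 in the weakest and 1.56 and 1.57 in the strongest. The other 18 autosomes of line 112 reached at most 1.16 in any class. The fall depended on the measure and the regions. As a median log2 ratio, the excess was 1.61 in weak and 1.77 in strong regions. In regions with a peak call of line 113, 119 or 73 the ratios were 1.53 and 1.61. In regions that pass the count filter they were 1.62 and 1.61. The strongest class took a smaller share of all counts in line 112 replicate 2 (38.2%) than in replicate 1 (43.3%). With summed counts of all regions, the ratios of both replicates fell with strength. The part of this share in the fall was not tested.

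**Figure D2:**
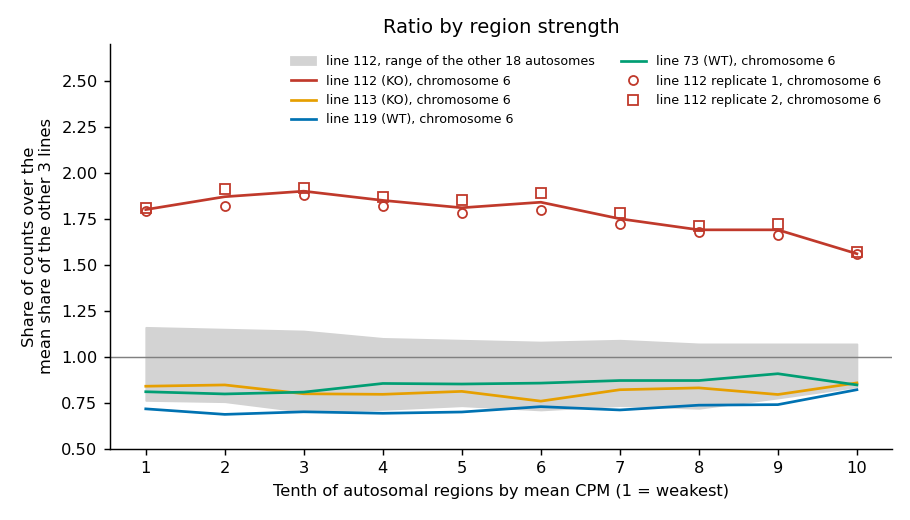
Ratio of the chromosome 6 share of counts to the mean of the other 3 lines, by class of region strength from weakest (1) to strongest (10); lines are line means, open symbols the 2 libraries of line 112, and the grey band the range of the other 18 autosomes of line 112. The red line falls from 1.8 to 1.56 and stays above the band in every class.

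The peak lists, called in each library separately by the authors, showed the same chromosome. Of the peaks, 7.91% (3065 of 38743) and 8.42% (1717 of 20387) lay on chromosome 6 for line 112. The shares were 5.73% and 5.69% for line 113, 5.56% and 5.45% for line 119, and 5.77% and 5.9% for line 73. Among the 19 autosomes, chromosome 6 had the highest percentage of regions overlapping a peak in both libraries of line 112 (31.1% and 17.3%) and the lowest in all 4 libraries of lines 113 and 119. The median fold over background that the peak caller gave these peaks was lower than elsewhere in line 112 (5.08 against 5.69 in replicate 1, 4.65 against 5.09 in replicate 2). In line 113 replicate 1 the medians were 6.38 and 6.49. More of the called peaks on chromosome 6 in line 112 were therefore low ones: 40.5% and 39.4% exceeded the library's median fold.

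The regions of chromosome 6 also differed from other autosomes in how they entered the table. A peak call in at least 1 library overlapped 83.3% of them, against 88.4% on the other autosomes, and the 16.7% without one was the highest share of the 19 autosomes. Of 1899 autosomal regions with a peak call in line 112 only, 491 (25.9%) lay on chromosome 6. Regions with a peak call in line 113, 119 or 73, which line 112 was not needed to find, gave a line 112 ratio of 1.62 over all strengths. Regions within 1 kb of a gene end gave 1.55, those over 10 kb away 1.73. The positions were otherwise like those elsewhere: 10.5% of chromosome 6 regions were within 1 kb of a gene end and 53.9% inside a gene, against 12.4% and 53.7% on the other autosomes.

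Along the chromosome, the ratio of line 112 was above 1 in all 15 windows of 10 Mb, but unevenly so. The ratio of weak regions to the other 3 lines ran from 1.24 to 3.01 over the 15 windows, with a median of 2.0, and that of strong regions from 1.05 to 1.95 with a median of 1.66. None of the 236 windows on other autosomes reached either median, the highest being 1.45 on chromosome 12 in weak regions and 1.37 on chromosome 1 in strong regions. From 80 to 90 Mb the weak ratio was 1.4 and the strong ratio 1.14, and from 90 to 100 Mb they were 1.24 and 1.05. In these windows the strong regions of line 112 were close to those of lines 113 and 73. Strong ratios of 1.39 and 1.4 followed from 100 to 120 Mb. From 120 to 150 Mb the weak ratios were the highest of the 15, at 3.01, 2.46 and 2.65. The strong ratios there were 1.85, 1.71 and 1.95, and those from 20 to 40 Mb, 1.85 and 1.83, were of the same size. In the 120 to 130 Mb window, lines 119 and 113 had weak ratios of 0.342 and 0.55, with line 112 in their comparison. Against each other only, lines 113, 119 and 73 had 0.9, 0.517 and 1.88, so the comparison lines differed there.

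**Figure D3:**
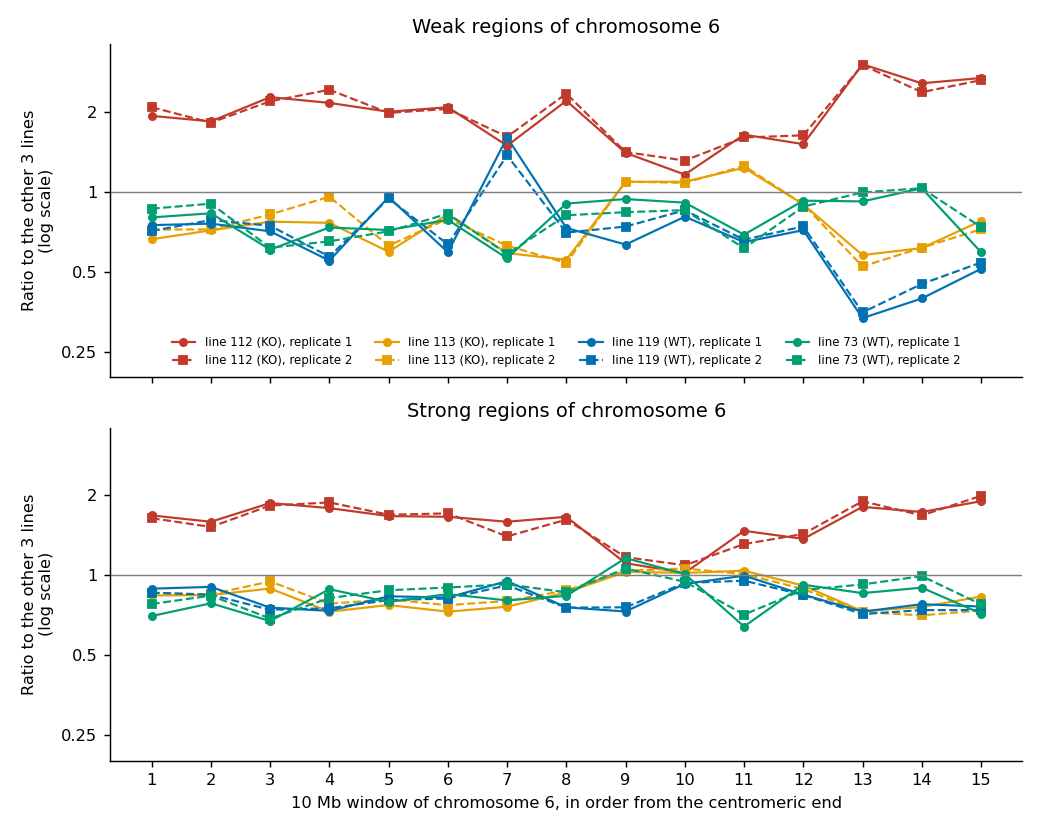
Ratio of the share of counts to the mean of the other 3 lines (log scale) in 15 consecutive 10 Mb windows of chromosome 6, for weak regions (top) and strong regions (bottom); each line is 1 library. Both libraries of line 112 run highest except in window 7 of the weak regions, where line 119 comes up to meet them, and in windows 9 and 10 of the strong regions, where they come down to between 1.02 and 1.17.

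The unevenness was located with least-squares steps in the log2 ratio of line 112 to the mean of the other lines, over the 737 regions of chromosome 6 that had a peak call in all 8 libraries. Ratios are given relative to the median of such regions on the other autosomes, which was -0.41. With 3 stretches, the residual sum of squares was 66.7% of that with 1, and a further stretch brought it to 64.7%. The proximal stretch, from 3.5 to 73.0 Mb, was 1.65-fold above the other autosomes (log2 0.72, 310 regions, of which 303 were above that base). The middle stretch, from 73.0 to 119.2 Mb, was 1.14-fold above (log2 0.19, 208 regions, 167 above). The distal stretch, from 119.4 to 149.4 Mb, was 1.82-fold above (log2 0.86, 219 regions, 218 above). The libraries of line 112 gave folds of 1.63 and 1.64, 1.15 and 1.18, and 1.77 and 1.84. Over the 2519 strong regions the steps fell at 76.5 to 76.8 Mb and 119.2 to 119.3 Mb, with folds of 1.78, 1.22 and 1.94. The distal border thus fell in the same place in both sets, between 119.2 and 119.4 Mb, and the proximal border moved by several megabases.

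With 4 stretches the middle one divided, at 97.9 Mb in the first set and 99.5 Mb in the second. The folds were then 1.09 and 1.33 on either side in the first set, and 1.13 and 1.41 in the second. The comparison lines set against each other showed no such profile. Each was set over the mean of the remaining comparison lines, relative to the other autosomes. In the 3 stretches, lines 113, 119 and 73 all lay within 0.2 log2 of that mean. Line 119 was lowest, at -0.19 in the middle stretch. Against each single line, line 112 was higher by 0.74, 0.74 and 0.68 log2 in the proximal stretch and 0.88, 0.88 and 0.78 in the distal one, in the order 113, 119, 73. In the middle stretch the values were 0.19, 0.41 and 0.15. These steps were fitted to the same values that chose the chromosome and are a description.

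The counts in each stretch, as a percentage of the counts on the other autosomes, give the same picture without a model. The proximal stretch stood at 4.55% and 4.62% for line 112 and 2.38% to 2.58% in the other 6 libraries. The middle stretch stood at 2.57% and 2.67% for line 112 and 1.84% to 2.1% in the others. The distal stretch stood at 3.63% and 3.75% against 1.63% to 2.07%. In all 3 stretches the libraries of line 112 did not overlap the others.

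Gene-end regions differed in level between the stretches. For each protein-coding gene, the strongest region within 1 kb of a gene end was taken. On the other autosomes the log2 ratio of line 112 to the mean of the other lines was -0.39 at the median of 11858 such regions, and gene values are given relative to that base. On chromosome 6 the median was 0.67 above it (685 regions, 89.8% above the base): 0.73 in the proximal, 0.25 in the middle and 0.87 in the distal stretch. Against single lines and without the base, line 112 had median log2 fold changes there of 0.14 (line 113), 0.88 (line 119) and 0.04 (line 73). Over all gene ends of the genome these medians were -0.52, 0.16 and -0.53. Of 85 genes in 7 lists, 72 had such a region, on 70 distinct regions, and 67 of these 70 were above the base (63 to 67 when 1 library was left out, lowest without replicate 2 of line 112). The medians of the named regions were 0.67, 0.34 and 0.84 in the 3 stretches.

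**Figure D4:**
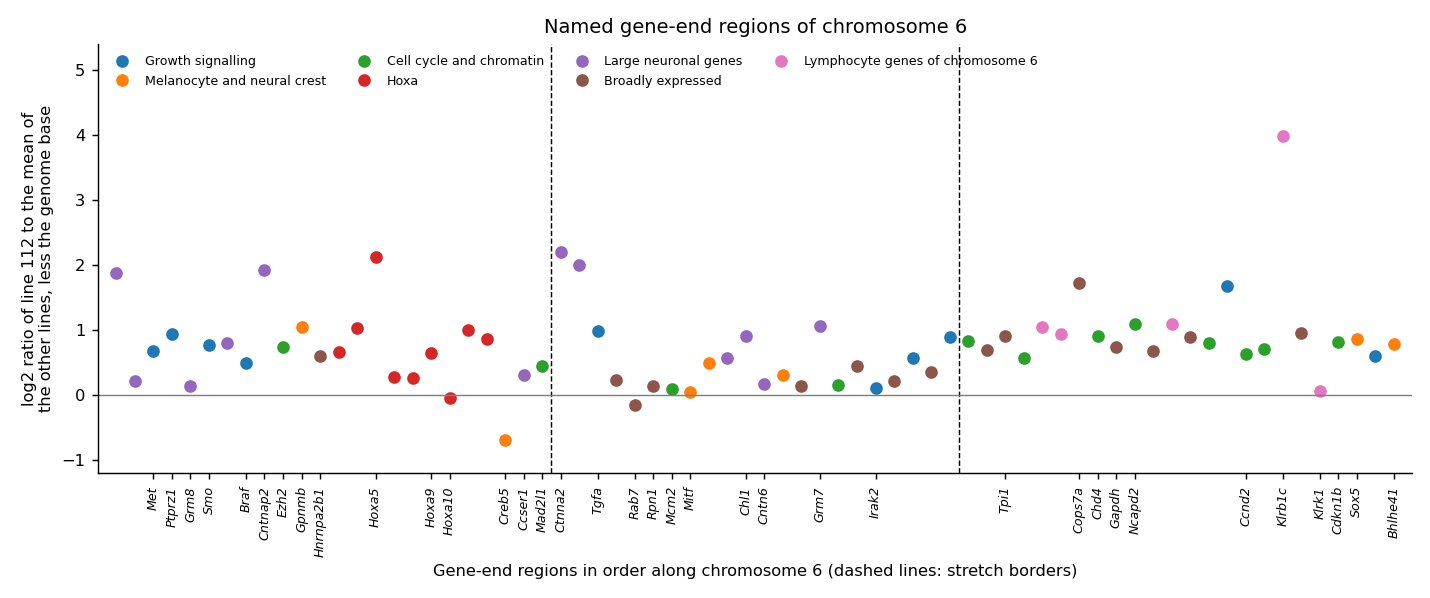
Log2 ratio of line 112 to the mean of the other 3 lines, less the median of gene-end regions on other autosomes, for 70 named gene-end regions in order along chromosome 6; colours give the gene list, dashed lines the stretch borders, and some of the genes are labelled. Values in the middle stretch sit lower (median 0.34) than in the proximal (0.67) and distal (0.84) stretches.

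Among growth signalling genes, Met, a receptor tyrosine kinase gene in the proximal stretch, had 45.8 and 34.5 CPM for line 112, 32.4 and 31.7 for line 113, 25.5 and 25.0 for line 119, and 40.5 and 41.1 for line 73. Its libraries of line 112 and line 73 overlapped, and the ratio was 0.68 log2 above the base. Braf, a kinase gene of the MAP kinase pathway, was 0.50 above the base, with 47.7 and 41.9 CPM for line 112 and 52.1 and 56.8 for line 113. Smo, the Hedgehog signal transducer, was 0.77 above. Irak2, of interleukin-1 signalling and in the middle stretch, was 0.12 above, but at -0.30 without replicate 1 of line 112. All 10 regions of this list were above the base, 9 of 10 without that library, with a median of 0.73. Over all chromosome 6 gene ends 89.8% were above, so the count is near that background.

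The region at the start of Mitf (chr6:97806694-97807718, in the middle stretch) had 28.6 and 20.9 CPM for line 112, 36.9 and 35.3 for line 113, 17.2 and 20.4 for line 119, and 38.2 and 40.0 for line 73. Line 112 lay below lines 113 and 73 and just above line 119, and its ratio was 0.05 above the base (-0.08 without replicate 1 of line 112), so the region did not share the level of the outer stretches. It is the most upstream start of the gene. Summed over the 46 regions touching Mitf, which spans 214 kb, the level was 330 and 267 CPM for line 112, 378 and 314 for line 113, 151 and 141 for line 119, and 206 and 218 for line 73. Gpnmb, a melanosome glycoprotein gene in the proximal stretch, was 1.05 above the base with 33.7 and 30.5 CPM for line 112 and 12.0 and 19.2 for line 73. Bhlhe41 and Sox5, transcription factor genes of the distal stretch, were 0.79 and 0.86 above. Creb5, encoding a transcription factor and lying in the proximal stretch, was the lowest of the named regions at -0.68, with 11.9 and 21.9 CPM for line 112 and 28.8 to 43.3 in the other 6 libraries.

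Broadly expressed and cell cycle genes lay in all 3 stretches. Gapdh, a glycolytic enzyme gene in the distal stretch, had 80.5 and 78.2 CPM for line 112, 76.3 and 69.9 for line 113, 31.1 and 34.8 for line 119, and 77.8 and 80.0 for line 73, a value 0.75 above the base. Its neighbours Chd4, a chromatin remodeller gene, and Ncapd2, of condensin, were 0.92 and 1.09 above. Cdkn1b was 0.82 above with 86.6 and 77.9 CPM for line 112. In the middle stretch, Rab7, a late endosome GTPase gene, was at -0.14 (0.02 without replicate 2 of line 112) with 27.0 and 18.2 CPM in line 112 against 38.3 and 40.2 for line 113. Rpn1, an oligosaccharyltransferase subunit gene, was 0.14 above and Mcm2, a replicative helicase subunit gene, 0.10 (-0.01 without replicate 2 of line 73). Arpc4, of the actin-nucleating Arp2/3 complex, and the ribosomal protein gene Rpl32 were higher in this stretch, at 0.45 and 0.36. In the proximal stretch Ezh2, the histone H3 lysine methyltransferase gene, was 0.75 above and Mad2l1, of the spindle checkpoint, 0.45. Some regions are shared by neighbouring genes, for example Cbx3 with Hnrnpa2b1 and Hoxa5 with Hoxa6, and those taken for Tpi1 and Cops7a hold the starts of Spsb2 and Pianp.

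The largest gene-end value in line 112 was at Klrb1c, a natural killer cell receptor gene, 3.99 above the base. Its libraries differed, with 150 and 35 counts (34.9 and 10.8 CPM) for line 112, 16 and 9 for line 113, 1 and 0 for line 119, and 8 and 10 for line 73. Klrk1, another such receptor gene, had 3.49 and 3.08 CPM for line 112 and 10.2 and 11.4 for line 73, a value of 0.07. All 5 lymphocyte genes with a region were above the base, and 4 of 5 without replicate 1 of line 73, where 89.8% of all chromosome 6 gene ends were. The leukocyte markers summed to 32.6 to 35.6 CPM for line 112, 37.5 to 41.2 for line 113, 26.0 to 26.8 for line 119 and 33.6 to 41.7 for line 73, so line 112 lay inside the range of the other lines.

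In tests region by region, the excess of line 112 appears as calls of mostly 1 direction. These counts share line 112 and its choice, and nothing is read from them. Of 8977 chromosome 6 regions that passed the count filter (466 did not), 3914 differed between lines 112 and 113 in the quasi-likelihood test of edgeR (adjusted p below 0.05), 3544 higher and 370 lower in line 112. That is 43.6%, against 23.8% of all 140329 regions, of which 8.24% were higher and 15.6% lower. Without replicate 1 of line 113 the count was 2216. Against line 119, 5754 regions were called (64.1% against 45.8%), 4842 higher and 912 lower, where 22.2% and 23.5% of all regions were. Against line 73, 5228 were called (58.2% against 49.9%), 3999 higher and 1229 lower, where 23.8% and 26.1% of all regions were. Of the 15 windows of weak regions, 14 were higher in line 112 than in line 113, 14 than in line 119 and 15 than in line 73, and 0 were lower. Over all autosomes 40.2%, 58.2% and 59.8% of windows were called in these contrasts. The median log2 fold change of chromosome 6 was 0.90, 0.96 and 0.85 in the 3 contrasts, while other autosomes ranged from -0.37 to 0.37. An offset for each library and chromosome, taken from the weak regions, moves all regions of the chromosome alike by the excess that chose it. It brought these medians to 0.09, -0.03 and -0.01. The calls were then 2451 (830 higher, 1621 lower), 4660 (2062 and 2598) and 4663 (1941 and 2722). This change of direction is built into the offset and says nothing more about line 112.

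**Figure D5:**
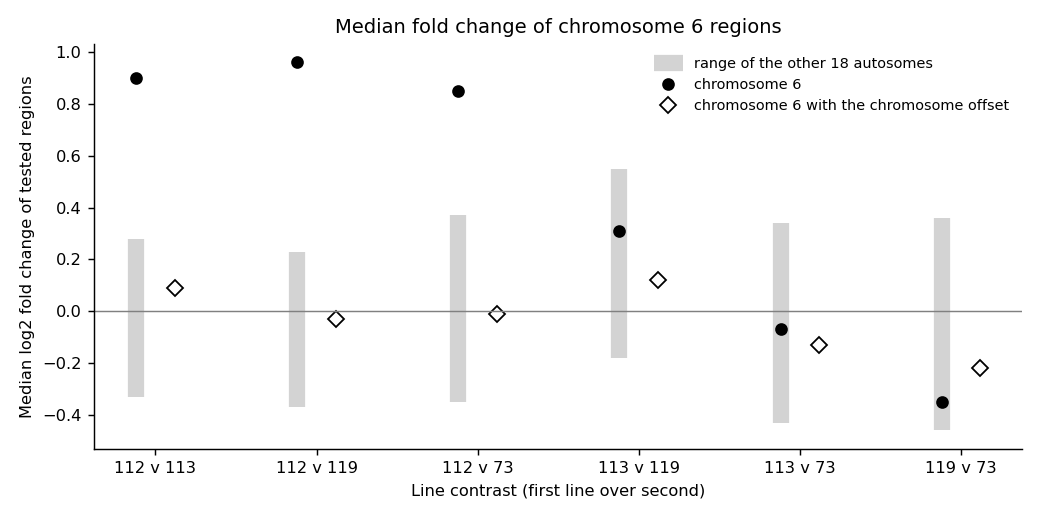
Median log2 fold change of tested chromosome 6 regions in 6 line contrasts (first line over second), without (filled circles) and with (open diamonds) the chromosome offset; grey bars are the range of the other 18 autosomes without the offset. The contrasts of line 112 stand at 0.85 to 0.96 and come to between -0.03 and 0.09 with the offset, while the other 3 contrasts lie inside the bars.

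The contrasts without line 112 did not choose the chromosome, although counts and peaks of line 112 helped to set which regions were in the table and passed the filter. In these contrasts the share of chromosome 6 regions called was within 2 percentage points of that of all regions. Between lines 113 and 119, 5245 of 8977 regions were called (58.4%, against 58.9% of all regions), 2906 higher (32.4% against 30.2%) and 2339 lower in line 113 (26.1% against 28.8%). Between lines 113 and 73, 4540 were called (50.6% against 52.2%), 2137 higher (23.8% against 25.8%) and 2403 lower in line 113 (26.8% against 26.5%). Between lines 119 and 73, 5054 were called (56.3% against 56.9%), 2092 higher (23.3% against 27.5%) and 2962 lower in line 119 (33.0% against 29.4%). The median log2 fold changes were 0.31, -0.07 and -0.35, each inside the range of the other 18 autosomes. Over the 7319 tested regions with a peak call in line 113, 119 or 73, a restriction chosen after the data were seen, the shares called were 62.9%, 57.7% and 64.0%, against 61.5%, 56.0% and 61.9% of all such regions. The split between lines 113 and 119 was then 2277 higher and 2329 lower, with a median of -0.02. Line 119 had more peaks (94906 and 85498) than line 113 (51700 and 52250). The restriction therefore admits more regions through line 119, and nothing is read from the change in the split. The chromosome offset gave 2462 higher and 2631 lower, a change that follows from moving all regions of the chromosome alike.

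Windows of weak regions differed among the 3 lines in places. Between lines 113 and 119, 12 of 15 windows were called (80.0%, against 52.2% of 251 windows on all autosomes), 9 higher and 3 lower in line 113. With strong regions 20% of the windows were called, and without replicate 1 of line 119 46.7% of those of weak regions. Between lines 113 and 73, 10 of 15 were called (66.7% against 60.2%), 5 in each direction, and the share was 40.0% with strong regions. It was also 40.0% when either replicate of line 113, or replicate 2 of line 73, was left out. Between lines 119 and 73, 10 were called (66.7% against 67.7%), 3 higher and 7 lower in line 119. The window from 60 to 70 Mb was higher in line 119, with a log2 fold change of -1.01 (SE 0.11, edgeR adjusted p = 6.56e-10) for line 113 over line 119 and 1.06 (SE 0.12, adjusted p = 3.19e-10) for line 119 over line 73. From 120 to 130 Mb line 119 was lower than line 73, with a log2 value of -1.23 (SE 0.12, adjusted p = 2.6e-11). From 100 to 110 Mb line 113 was higher than both, by 0.68 over line 119 (adjusted p = 1.9e-10) and 0.69 over line 73 (adjusted p = 1.08e-09).

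In 5 Mb windows the excess of line 119 lay between 60 and 65 Mb, where its ratio to the other lines was 3.23 in 41 weak regions and 2.71 over all 71 regions. Line 112 had 1.18 in weak regions there, and lines 113 and 73 had 0.371 and 0.295. Ccser1, which encodes a coiled-coil protein, lies in this interval. Summed over the 32 regions of Ccser1, line 119 had 177 and 154 CPM, line 112 78.7 and 94.5, line 113 35.3 and 42.1, and line 73 47.4 and 48.3. Both libraries of line 119 were thus above the other 6 in this gene. Of its 27 tested regions, 22 were lower and 0 higher in line 113 than in line 119. Of all regions, 28.8% were lower and 30.2% higher. The gene lies in the interval already described as high in line 119, so these counts are not separate from that excess.

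Other long neuronal genes differed between the lines in their own ways. Ctnna2, encoding a neuronal catenin, was low in line 113, with 39.9 and 52.5 CPM over 42 regions against 128 to 201 in the other 6 libraries. The 75 to 80 Mb window that holds it had a ratio of 0.243 for line 113 over all regions. Grm7, a metabotropic glutamate receptor gene, had 23.3 and 34.6 CPM in line 113 against 70.2 to 134 elsewhere, and its relative Grm8 had 117 and 109 in line 119 against 12.8 to 61.9 elsewhere. Cntnap2, a neurexin family gene that spans 2241 kb, had 398 and 318 CPM for line 112, 150 and 180 for line 113, 324 and 301 for line 119, and 66.6 and 71.9 for line 73. Cntn6, a contactin gene, was high in line 113, with 66.4 and 53.7 CPM against 28.4 and 31.7 for line 112 and 2.97 to 5.0 in lines 119 and 73. Chl1, a cell adhesion gene, was low in line 73, with 18.4 and 18.1 CPM against 61.6 to 143 in the other libraries. Other members were highest in line 112. Nxph1, a neurexophilin gene, had 51.7 and 49.6 CPM for line 112 and 5.23 to 20.4 elsewhere, and Lrrtm4, a synaptic adhesion gene, 75.2 and 69.9 against 12.0 to 46.4. Cntn4, another contactin gene, had 104 and 46.5 for line 112 against 7.78 to 49.6, so its libraries overlapped. Over the 15 genes of this list, summed levels were highest in line 112 in 6, line 119 in 5, line 113 in 3 and line 73 in 1. Line 112 was lowest in 1, the calcium channel gene Cacna1c, where its 181 and 233 CPM overlapped the 205 to 228 of lines 113 and 119.

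At gene ends, list counts have to be read against a shift of line 119. Over 12892 gene-end regions of the genome, 75.9% differed between lines 113 and 119, with 8489 higher and 1296 lower in line 113, and 75.3% between lines 119 and 73. Only 32.5% differed between lines 113 and 73. The lower share of strong regions in the counts of line 119 moves with this, and its part was not tested. Line 112, given as a description, was also mostly lower at gene ends of the genome. In line 112, 5966 were lower and 648 higher than in line 113, and 6666 lower and 1256 higher than in line 73. Between lines 112 and 119, 33.6% differed. Of the 15 tested broadly expressed regions, 14 were higher in line 113 than in line 119 and 0 lower, with a median log2 fold change of 0.95 against 0.74 over all gene ends. Of the 12 cell cycle and chromatin regions, 11 were higher and 0 lower, and 12 of 12 were lower in line 119 than in line 73. Between lines 113 and 73 only Ccnd2, the cyclin D2 gene, differed among these 12, lower in line 113 (24.9 and 21.8 CPM) than in line 73 (83.7 and 81.4 CPM) by a log2 value of -1.82 (SE 0.18, edgeR adjusted p = 2.41e-13). Growth signalling had 6 of 10 higher and 0 lower in line 113 than in line 119. Against line 73, 2 were higher in line 113: Tgfa, the ligand gene of the EGF receptor, by 1.70 (SE 0.28), and Ptprz1, a receptor phosphatase gene, by 2.23 (SE 0.38).

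The Hoxa cluster ordered the lines 73, 113 and 119 from high to low. At Hoxa9, a homeobox transcription factor gene, line 73 had 30.5 and 28.6 CPM, line 112 19.1 and 20.9, line 113 15.4 and 14, and line 119 5.43 and 5.74. No libraries of different lines overlapped there. Line 119 was below line 73 by a log2 value of -2.40 (SE 0.24, edgeR adjusted p = 2.21e-12). Of 9 tested Hoxa regions, 8 were lower in line 119 than in line 73 and 8 lower in line 113 than in line 73, and 7 were higher in line 113 than in line 119. The median log2 fold changes were -3.06, -1.39 and 1.44, against -0.72, 0.02 and 0.74 over all gene ends. Hoxa10 did not pass between lines 113 and 119 (edgeR adjusted p = 0.0896). The region that passed in none of the 3 contrasts was that of Hoxa5 and Hoxa6, with 4.17 to 7.02 CPM in lines 113, 119 and 73 and 13.5 and 26.8 for line 112.

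Of the melanocyte and neural crest genes, 6 of 7 regions were higher in line 113 than in line 119 and 0 lower (85.7% called, against 75.9% of all gene ends). Mitf was higher in line 113 than in line 119 by 0.95 (SE 0.19, edgeR adjusted p = 2.84e-05) and lower in line 119 than in line 73 by -1.06 (SE 0.19, adjusted p = 4.7e-06), while lines 113 and 73 gave -0.11 (SE 0.19, adjusted p = 0.647). Gpnmb was the only one of the 7 that was higher in line 113 than in line 73, by 0.95 (SE 0.22, adjusted p = 0.000218). Of the large neuronal genes, 5 of 12 gene ends were higher and 1 lower in line 113 than in line 73 (50.0% called, against 32.5% of all gene ends, with 2000 higher and 2186 lower). The largest of these was Chl1, with 1 and 2 counts in line 73 against 84 and 71 for line 113.

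The single regions with the smallest p in each contrast lay mostly over 1 kb from gene ends, as chromosome 6 regions did in general (10.5% within 1 kb). Between lines 113 and 119 the region higher in line 113 with the smallest p lay in Pde3a, a phosphodiesterase gene (chr6:141248978-141250242), with 79.1 and 67.2 CPM for line 113 and 9.82 and 9.45 for line 119. Lines 112 and 73 had 63.4 to 70.3 CPM there, so line 119 stood alone. Among those lower in line 113 was a region 83548 bp from Fam13a (chr6:59108050-59108579), with 1.36 and 0.484 CPM for line 113, 26.5 and 28.9 for line 119, 2.05 and 1.39 for line 73 and 4.65 and 2.77 for line 112. Line 119 was again the line that stood apart. Among those lower in line 113 than in line 73 was a region in Arntl2, a circadian clock gene, with 3.85 and 2.9 CPM for line 113, 55.8 and 55.6 for line 73, 23.9 and 24.5 for line 119 and 25.4 and 20 for line 112. The log2 value of line 113 over line 73 was -4.03 (SE 0.26, edgeR adjusted p = 1.73e-19). Regions 50097 bp from Iqsec3 and 48280 bp from Parp11 were high in lines 112 and 113 (35.1 to 72.1 CPM) and low in both wild-type lines (3.61 to 10.3 CPM).

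Line 73 stood apart at several others. A region in Mical3, an actin-oxidising enzyme gene, had 2.3 and 0.833 CPM for line 73 and 28.3 to 73.3 in the other 6 libraries. A region in Ephb6, a kinase-dead ephrin receptor gene, had 3.33 and 2.78 CPM for line 73 and 28.4 to 53.4 elsewhere. In the other direction a region at Cald1, the gene of the actin-binding protein caldesmon (chr6:34598184-34598855), had 51.0 and 44.4 CPM for line 73 and 1.18 to 6.16 elsewhere. A region in Clec2g, a C-type lectin gene, had 32.0 and 34.7 CPM for line 73, 16.3 and 10.5 for line 112, 2.72 and 2.42 for line 113, and 0.258 and 0.169 for line 119. Each of these calls was made with 2 libraries against 2.

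The genotype comparison contains line 112 in the knockout group and so also rests on the choice of chromosome. With counts summed per line and 2 lines against 2, 0 of 8977 chromosome 6 regions passed the threshold of 0.05 in edgeR, and 0.0% of all regions did. The smallest adjusted p on the chromosome was 0.143. Before adjustment, 1580 regions had a p below 0.05 (17.6%, against 16.9% of all). DESeq2's Wald test called 386 of the 8977, 326 higher in the knockout lines (4.3%, against 4.17% of all regions), and edgeR without replicate 1 of line 112 called 43 (0.481% against 0.453%). Both shares were near those of all regions. The median log2 ratio of knockout to wild type was 0.38 on chromosome 6 and -0.09 over all regions, the highest of the 19 autosomes. With the chromosome offset it was -0.19, rank 17 of 19. This shift follows from the offset, which removes the level of line 112 that chose the chromosome.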

How the data were processed

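ATAC-seq was measured in 8 libraries. The authors deposited raw counts for 148664 regions and all libraries, with 0 columns of other samples, and 1 peak list per library. Per the submitters' processing notes, Bowtie2 2.2.4, Picard 1.118 and MACS2 2.1.1.20160309 were used with the builds mm10 and GRCm38. Whether counts are reads, fragments or shifted cuts is not given in the sources used here. The deposited lists give each peak a score, a ratio to background (fold), and its p and q as −log10. Only position and fold were used, to describe peaks within a list. Regions were placed on RefSeq genes of GRCm38.p6, and coordinates count from 1.

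Shares of counts were taken over the 19 autosomes in 4 classes of mean CPM, with 95% Wilson intervals. Counts in the stretches were instead divided by those of the autosomes other than chromosome 6. Windows were 10 Mb with at least 20 regions. Log2 ratios had 0.1 CPM added to both sides, and stretches held at least 10 regions. Counts summed per line were passed through filterByExpr (at least 10 counts, 15 in total). The kept regions were scaled by TMM, and tested with edgeR 4.0.16 (robust quasi-likelihood, two-sided, R 4.3.3) with Benjamini-Hochberg adjustment over all tested regions at 0.05. Alternatives included DESeq2 1.42.0, other filters, leaving out each library and an offset per library and chromosome from its weak-region share. On simulated counts for line 113 against line 119 (30000 regions, 200 changed), 24.0% of 2-fold and 88.5% of 4-fold changes were recovered, with 3 false of 51 calls and 10 false of 187. In the deposited counts 58.9% of regions were called in this contrast, so these rates do not carry over to it.

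The chromosome, the gene lists and the tests were chosen with earlier results of these data known. Named genes were 85 genes of 7 lists, each represented by its strongest region no more than 1 kb from either gene end. To these were added, for both directions of the contrasts without line 112, the 3 regions of lowest p at 10 CPM or more in the higher line. Cell type markers were a further set of lists. Some of the named genes and regions are not reported here one by one.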

Additional observations from a re-analysis of the deposited data

How the results depend on the processing

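The excess of chromosome 6 in line 112 was above 1.5 in weak and strong regions under each alternative run. The weak ratio, 1.86, was 1.9 with classes set by lines 113, 119 and 73, 1.8 with 10 classes, 1.62 in regions that pass the count filter, 1.61 as a median log2 ratio, 1.53 in regions with a peak call of line 113, 119 or 73, 1.72 within 1 kb of gene ends and 1.93 against the counts of the other 18 autosomes. The last 3, and all alternatives for the stretches, were chosen after the data were seen. The strong ratio, 1.61, was 1.56 with classes set by lines 113, 119 and 73 and with 10 classes, 1.68 over 10 kb from gene ends, 1.77 as a median log2 ratio, 1.53 within 1 kb of gene ends and 1.67 against the other 18 autosomes. Leaving out 1 library gave 1.84 to 1.88 and 1.59 to 1.62. The median window ratio, 2.0, was 2.08 in 5 Mb windows, 1.66 in strong, 1.71 in all and 1.96 in weak regions set without line 112, and 1.98 to 2.05 without 1 library. Over strong regions the stretches stood at 0.83, 0.29 and 0.96 log2. Without 1 library they ranged from 0.71 to 0.74, 0.18 to 0.24 and 0.82 to 0.88.

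Called windows between lines 113 and 119 (80.0%) were 20% in strong and 33.3% in all regions, and 46.7% to 80.0% without 1 library. Those between lines 113 and 73 (66.7%) were 43.3% in 5 Mb windows, 40.0% in strong regions, and 40.0% to 66.7% without 1 library. With a mean of at least 50 counts only 1470 regions of the chromosome were tested, and 939 were called between lines 113 and 119 (63.9%, against 59.3% of all regions so filtered), 921 between 113 and 73 (62.7% against 59.5%) and 1029 between 119 and 73 (70.0% against 62.9%). For line 112 against 113, 119 and 73 they were 999 (68% against 30.9%), 1106 (75.2% against 49.7%) and 1096 (74.6% against 57.4%). DESeq2's Wald test called 1507 between lines 112 and 113 (16.8% against 10.3%), 3818 between 112 and 119 (42.5% against 25.7%), and 386 for the genotype (4.3% against 4.17%). The chromosome offset left 2451 between lines 112 and 113. Without 1 library the contrasts of line 113 gave 4028 to 5435 (with 119) and 3836 to 4721 (with 73), lines 119 and 73 3932 to 5228, line 112 2216 to 3738, 4333 to 5633 and 4057 to 5124, and the genotype 0 to 43. The cause of these changes was not tested, apart from the smaller number of regions tested.

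Replicate numbers did not pair the libraries: correlations of same-numbered deviations ran from -0.037 to 0.004. With the replicate number as a block, 5197, 4511 and 5004 regions were called among lines 113, 119 and 73, and 3830, 5688 and 5167 in the contrasts of line 112. The block left the called windows at 80.0%, 66.7% and 66.7%. All 269 refits of the named single regions kept their direction and call. Among values of single genes, lists and the other lines, 1443 stayed within their limits and 140 moved. The sign of the line 112 value, which carries no test, turned in 10 of 72 named genes when 1 library was left out. Without replicate 1 of line 112 these were Irak2 (0.12 to -0.30), Mitf (0.05 to -0.08) and Hoxa10 (-0.04 to 0.52). Without its replicate 2 they were Hoxa7 (0.26 to -0.26), Hoxa13 (0.86 to -0.01), Grm7 (1.07 to -0.06), Cntn6 (0.17 to -0.22), Ccser1 (0.32 to -0.15) and Rab7 (-0.14 to 0.02). Without replicate 2 of line 73 it was Mcm2 (0.10 to -0.01), and without replicate 1 Hoxa10 was at 0.08. Where 1 library of a line was left out, the lone one was assumed to vary like the rest. Depth limits weak regions most, which hold the fewest counts.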

Other observations

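High windows of weak regions were also seen on other autosomes. Among 10 Mb windows on other autosomes, the highest weak-region ratio was 2.31 for line 119 from 90 Mb on chromosome 14, 2.1 for line 113 from 70 Mb on chromosome 4 and 1.61 for line 73 from 20 Mb on chromosome 15. Line 112 reached 1.45 at most outside chromosome 6. No window there was above its chromosome 6 median of 2.0. In 5 Mb windows the same 3 places reached 3.82, 3.4 and 4.49. These values were picked as the highest of 236 or 452 windows and carry no test.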
